A study of Mus musculus with 6 samples.

Results

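Immediate early genes are transcribed within minutes of a signal, without new protein synthesis, and their RNAs are short-lived. Serum and growth factors reach many of them through the ERK kinases and the serum response factor SRF, which binds a promoter element called the CArG box together with ternary complex factors of the ETS family. Stress and inflammatory signals reach some of them through p38, JNK or NF-kB. In fibroblasts, returning serum to starved cells is the classical way to induce them.

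The 10 genes described here are immediate early genes outside the AP-1 family: the EGR genes Egr1, Egr2 and Egr3, the IER genes Ier2, Ier3 and Ier5, the KLF genes Klf2, Klf4 and Klf6, and Nr4a1. They were taken by symbol from the 27507 gene identifiers of the deposited table, and all 10 were found. Of these, 9 passed the filter on low values and were among the 12408 genes tested. The RNA came from L929, an established mouse fibroblast line, in 3 libraries of STING KO cells and 3 libraries of control cells whose genotype label is WT. STING is an adaptor of the endoplasmic reticulum that relays cytosolic DNA sensing by cGAS to the kinase TBK1 and on to IRF3 and NF-kB, and the comparison asks what its loss does to the transcriptome. Neither a treatment nor a serum condition is given in the labels. They also do not say whether the knockout line is a clone, or that replicates were grown apart, so the tests weigh differences against a spread between libraries that may be technical.

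Values are normalized counts, that is gene counts divided by a size factor of each library, with totals of 14382072 to 14526606 per library. Sting1 RNA averaged 85.4 ± 6.96 in STING KO and 318 ± 10.1 in control (SD, n = 3 each), lower in each library labelled STING KO. All 10 fibroblast markers looked for, such as collagen I and vimentin, were present in every library, with summed values of 221193 to 236253 in STING KO and 207115 to 219176 in control. The 12 hepatocyte markers summed to 4937 in STING KO replicate 1 and 5386 in control replicate 3, against 355 to 740 in the other STING KO libraries and 329 to 715 in the other control libraries. Of the macrophage and leukocyte markers, all 9 were above 0 in these same libraries, against 8 in each other STING KO library and 6 in each other control library. Their sums differed less, at 974 in STING KO replicate 1 and 908 in control replicate 3. The other STING KO libraries were at 824 to 944 and the other control libraries at 772 to 869. Cd68, at 670 to 860, made up most of this sum in every library. Lyz2 was at 71.3 in STING KO replicate 1 and 97.4 in control replicate 3. It was at 17.9 to 22.1 in the other STING KO libraries and 16.0 to 18.0 in the other control libraries. Cd14 was at 46.5 in STING KO replicate 1 but at 19.9 in control replicate 3, against 38.9 in each other control library. Because of the hepatocyte markers, results are also given without both STING KO replicate 1 and control replicate 3. Endothelial markers summed to 95.6 to 97.0 in STING KO and 80.8 to 92.8 in control. Epithelial markers, with Krt5 at 0 in all libraries, summed to 496 to 604 in STING KO and 440 to 509 in control.

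Promoters of 7 of the 10 genes were matched by symbol to RefSeq (build GRCm38.p6), each from 250 bases before to 50 bases after a start site. Egr1, Egr3 and Ier2 were not matched, so their promoters were not searched for either element. The promoters of Ier3, Nr4a1 and Egr2 are printed because they hold the letters of a CArG box or of a kappaB site, the element read by NF-kB. The matches are in capitals, and both strands were searched.
Ier3, chr17:35821463-35821762, plus strand: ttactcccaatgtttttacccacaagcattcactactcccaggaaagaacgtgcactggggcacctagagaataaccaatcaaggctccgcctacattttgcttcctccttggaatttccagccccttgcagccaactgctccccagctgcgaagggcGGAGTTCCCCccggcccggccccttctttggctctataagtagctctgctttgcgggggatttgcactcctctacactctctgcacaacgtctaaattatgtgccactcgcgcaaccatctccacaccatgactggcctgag
Nr4a1, chr15:101266596-101266895, plus strand: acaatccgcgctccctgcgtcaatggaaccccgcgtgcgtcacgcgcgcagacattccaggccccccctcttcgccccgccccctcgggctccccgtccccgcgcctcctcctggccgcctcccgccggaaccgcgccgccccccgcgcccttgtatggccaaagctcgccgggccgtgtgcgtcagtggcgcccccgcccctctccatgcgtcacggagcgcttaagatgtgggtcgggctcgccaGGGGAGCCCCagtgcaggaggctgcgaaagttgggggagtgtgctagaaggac
Egr2, chr10:67537619-67537918, plus strand: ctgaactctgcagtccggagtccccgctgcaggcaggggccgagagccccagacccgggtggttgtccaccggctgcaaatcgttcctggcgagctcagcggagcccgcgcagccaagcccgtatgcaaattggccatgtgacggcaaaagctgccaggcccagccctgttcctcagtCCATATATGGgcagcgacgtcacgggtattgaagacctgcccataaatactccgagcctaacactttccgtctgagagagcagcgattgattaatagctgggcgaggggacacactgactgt

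The kappaB match of Ier3 begins at base -92 relative to the start site and overlaps a GC box (GGGCGG) that begins at -96. That of Nr4a1 begins at -3 and spans the start site. A kappaB match is held by 4.35% of the 27025 promoters searched, which count each gene once, by the start site listed first. Egr2 has 5 listed start sites, and 4 of their windows, which overlap in part, hold a CArG box, at -72 in the window printed. The window listed first for Egr2 holds none, so that by the count of 1 window per gene 0 of the 7 matched genes hold a CArG box, against 1.57% of promoters. The promoters of Ier5, Klf2, Klf4 and Klf6 held neither element in this window, and all 7 matched genes held at least 1 GC box, the element bound by Sp and KLF factors, against 35.9% of promoters. These are matches of letters only.

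**Figure D1:**
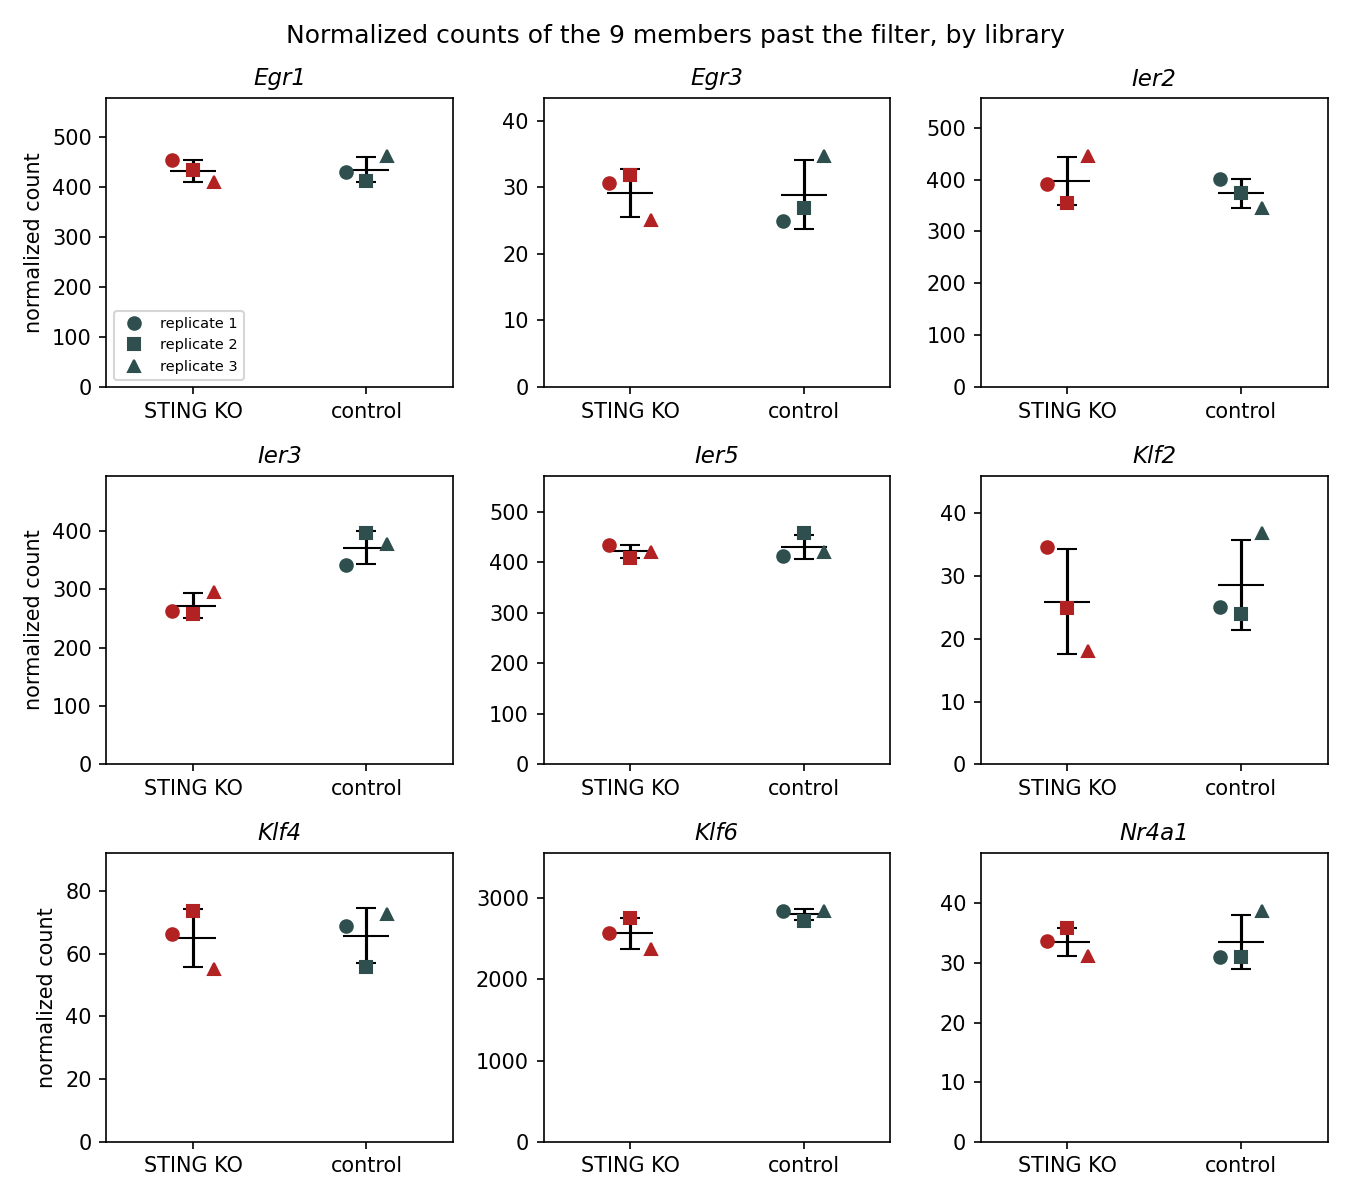
Normalized counts (vertical axes, from 0) of the 9 immediate early genes past the filter in 3 STING KO and 3 control libraries; marker shapes give the replicate number, and horizontal ticks with bars give the mean ± SD. The groups overlap in 8 panels and are apart only for Ier3, at 258 to 296 in STING KO and 341 to 396 in control.

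Of the EGR, IER, KLF and NR4A genes, limma called 0 of the 9 tested as different between STING KO and control. Ier3 was at 73.2% of control with groups apart, and the other 8 had overlapping groups, with means at 90.6% to 106% of control. The share of all tested genes called was 0.258% lower and 0.00% higher. limma-voom also called 0 of these genes. The authors' deposited table has 0 of them past an adjusted p of 0.05, against 0.294% of the genes given one there. At an unadjusted p at or under 0.05 there was 1 gene, Ier3, while 6.37% of all tested genes passed in either direction. Ier3 was likewise the 1 gene of 9 whose groups did not overlap, against 12.1% of all tested genes. The median log2 fold change of the 9 genes was -0.02 and that of all tested genes was 0.00, with 3 genes at a positive and 6 at a negative sign.

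Ier3 encodes a small stress-inducible protein, also called IEX-1, that affects apoptosis and ERK signalling and is a known target of NF-kB. Its gene (ENSMUSG00000003541, GRCm38 chromosome 17, 35821684 to 35822923, plus strand) was at 262, 258 and 296 normalized counts in STING KO, against 341, 396 and 378 in control. Every STING KO library lay below every control library, and the highest STING KO library, replicate 3, was closest to the lowest control library, replicate 1. The mean was 272 ± 20.99 in STING KO and 372 ± 27.8 in control (SD, n = 3 each), or 73.2% of control. The log2 fold change was -0.45 (SE 0.09, 95% interval -0.65 to -0.25), with an unadjusted p of 0.000506 and a limma adjusted p of 0.143, so the gene was not called. It stood at rank 44 of 12408 by p.

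The values of Ier3 depended on the libraries kept. Without STING KO replicate 3 the limma adjusted p was 0.0454, past the threshold, at a log2 fold change of -0.51. Over all 16 alternatives the log2 fold change ran from -0.51 to -0.40 and the adjusted p from 0.0454 to 0.9998. Without both libraries rich in hepatocyte transcripts the log2 fold change was -0.41 (SE 0.13). In the authors' deposited table Ier3 is at a log2 fold change of -0.45 (SE 0.127) with an adjusted p of 0.138.

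A ratio of IER genes within a library does not depend on scaling between libraries. The count of Ier3 divided by that of Ier5 was 0.602, 0.630 and 0.704 in STING KO, against 0.826, 0.865 and 0.898 in control. Divided by that of Ier2 it was 0.669, 0.728 and 0.664 in STING KO, against 0.851, 1.06 and 1.09 in control. For both ratios all STING KO libraries lay below all control libraries, and neither was tested. Both reuse the Ier3 values given above, whose groups were already apart, so they are no separate support. Flot1, which starts 306 bases after the annotated end of Ier3 on the same strand, averaged 574 ± 66.3 in STING KO and 566 ± 26.3 in control (SD, n = 3 each). No annotated gene overlaps any of the 10 genes in GENCODE M21.

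Ier2 (ENSMUSG00000053560, chromosome 8, 84661331 to 84662852, minus strand) encodes a nuclear protein that takes part in transcriptional responses to growth factors. It was at 391.9, 354.4 and 445.9 normalized counts in STING KO, against 401.3, 374.1 and 345.7 in control. The groups overlapped, although the highest value was in STING KO replicate 3 and the lowest in control replicate 3. The log2 fold change was 0.08 (SE 0.10, limma adjusted p = 0.797), with a 95% interval of 91.3% to 123% of control.

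Ier5 (ENSMUSG00000056708, chromosome 1, 155096361 to 155099636, minus strand), whose product works with the heat shock factor HSF1 and the phosphatase PP2A, was the steadiest of the IER genes. It was at 435, 409 and 421 normalized counts in STING KO, against 413, 458 and 420 in control. The values interleaved, and the within-group spread was that of counting, with a chi-square divided by its degrees of freedom at 0.921, where 1 is pure counting noise. The log2 fold change was -0.03 (SE 0.07, limma adjusted p = 0.907), with a 95% interval of 88.1% to 109% of control.

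**Figure D2:**
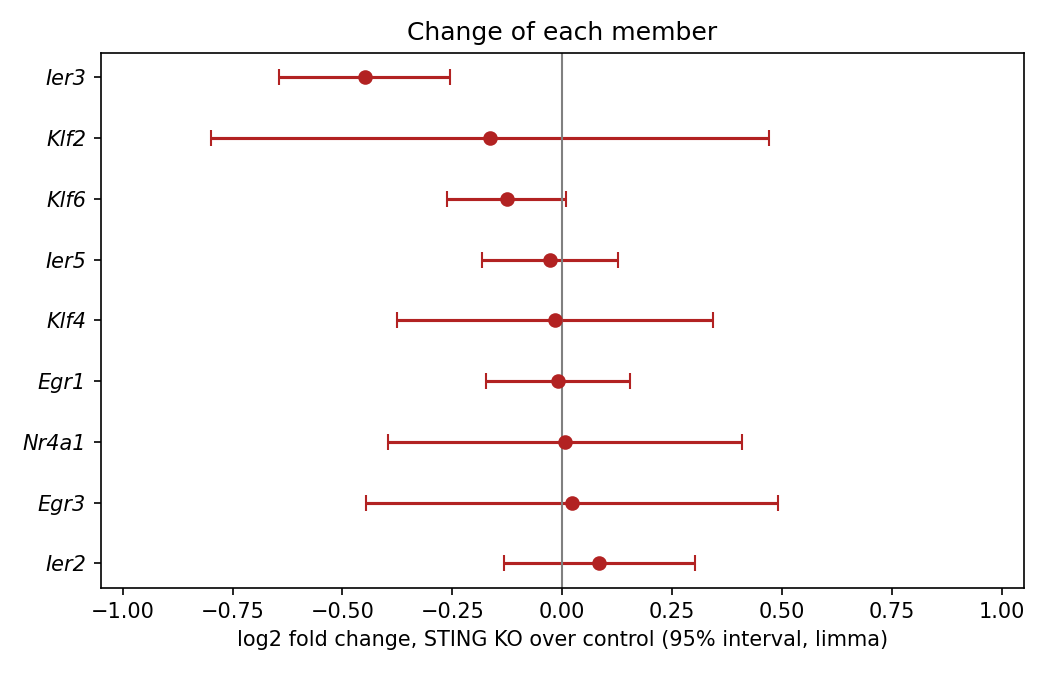
Log2 fold change, STING KO against control (horizontal axis), for each of the 9 tested immediate early genes, as points with 95% intervals from limma. The interval of Ier3 runs from -0.65 to -0.25, and the other 8 intervals include 0.

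The EGR genes encode zinc finger transcription factors that bind GC-rich sites. Egr1, the family member most widely induced by serum, lies on chromosome 18 (ENSMUSG00000038418, 34859823 to 34864984, plus strand). It was at 454, 434 and 410 normalized counts in STING KO, against 430, 413 and 463 in control. The groups overlapped over nearly their whole range. The log2 fold change was -0.01 (SE 0.07, limma adjusted p = 0.972), with a 95% interval of 88.7% to 111% of control.

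Egr3 (ENSMUSG00000033730, chromosome 14, 70077203 to 70082614, plus strand), which is known from muscle spindles and lymphocytes, was low. It was at 30.7, 31.9 and 25.1 normalized counts in STING KO, against 24.96, 26.9 and 34.8 in control, and the log2 fold change was 0.02 (SE 0.21, limma adjusted p = 0.974). At this level the 95% interval ran from 73.4% to 141% of control, so changes within these bounds remain compatible with the values. The bounds are no limit of detection, since a call rests on the adjusted p. Egr2 (ENSMUSG00000037868, chromosome 10, 67535475 to 67542188, plus strand), a regulator of myelination in Schwann cells, was listed at 0 in all 6 libraries. A count of 0 allows up to 3 counts per library, or 0.206 to 0.208 per 1000000 normalized counts, for counting error only.

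Klf6 (ENSMUSG00000000078, chromosome 13, 5861482 to 5870394, plus strand), a widely expressed factor that responds to tissue injury, had the highest level per kb of the 3 KLF genes. It was at 2570, 2755 and 2374 normalized counts in STING KO, against 2840, 2715 and 2835 in control. Only STING KO replicate 2 lay within the control range, at the level of control replicate 2. The mean was 2566 ± 191 in STING KO and 2797 ± 70.8 in control (SD, n = 3 each), which is -0.13 on the log2 scale (SE 0.06, limma unadjusted p = 0.0653, adjusted p = 0.738). The 95% interval ran from 83.4% to 101% of control. The same within-group chi-square measure was 8.91, the largest of the 9 genes. That measure grows with the count at a given relative spread, and the SE of Klf6 was the smallest of the 9.

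Klf4 (ENSMUSG00000003032, chromosome 4, 55527143 to 55532466, minus strand), one of the factors used to reprogram fibroblasts to pluripotency, was at 66.3, 73.7 and 55.2 normalized counts in STING KO, against 68.9, 55.9 and 72.5 in control. The ranges nearly coincided. The log2 fold change was -0.02 (SE 0.16, limma adjusted p = 0.977), with a 95% interval of 77.1% to 127% of control.

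Klf2 (ENSMUSG00000055148, chromosome 8, 72319033 to 72321656, plus strand) is best known from endothelium under flow and from resting T cells, and is also found in macrophages. It was at 34.6, 24.9 and 18.1 normalized counts in STING KO, against 24.96, 23.9 and 36.8 in control. Its highest value in each group was in the library rich in hepatocyte transcripts, STING KO replicate 1 and control replicate 3. The log2 fold change was -0.16 (SE 0.28, limma adjusted p = 0.868), and the 95% interval of 57.5% to 139% of control was the widest of the 9 genes. Its log2 fold change was 0.07 without STING KO replicate 3, 0.03 without control replicate 3, -0.40 without STING KO replicate 1 and -0.20 without both libraries rich in hepatocyte transcripts.

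Nr4a1 (ENSMUSG00000023034, chromosome 15, 101254269 to 101274795, plus strand), the orphan nuclear receptor Nur77, was at 33.7, 35.8 and 31.1 normalized counts in STING KO, against 30.9, 30.9 and 38.7 in control. The means were 33.5 ± 2.36 in STING KO and 33.5 ± 4.51 in control (SD, n = 3 each), or 0.01 as a log2 fold change (SE 0.18, limma adjusted p = 0.993). The 95% interval ran from 75.9% to 133% of control. The kappaB letters printed above stand in the promoters of both Nr4a1 and Ier3. Whether they bear on the level of either gene was not tested.

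Across all 9 tested genes the 95% interval stayed within 2-fold in both directions, as it did for 95.1% of all tested genes. Within 1.5-fold it stayed for 7 of the 9, all but Ier3 and Klf2, against 85.4% of all tested genes. The widest intervals were those of Klf2, Egr3 and Nr4a1, the genes of fewest counts above 0, and a p that misses the threshold does not show that the groups were alike. In bulk RNA, fewer expressing cells and less RNA per cell cannot be told apart.

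**Figure D3:**
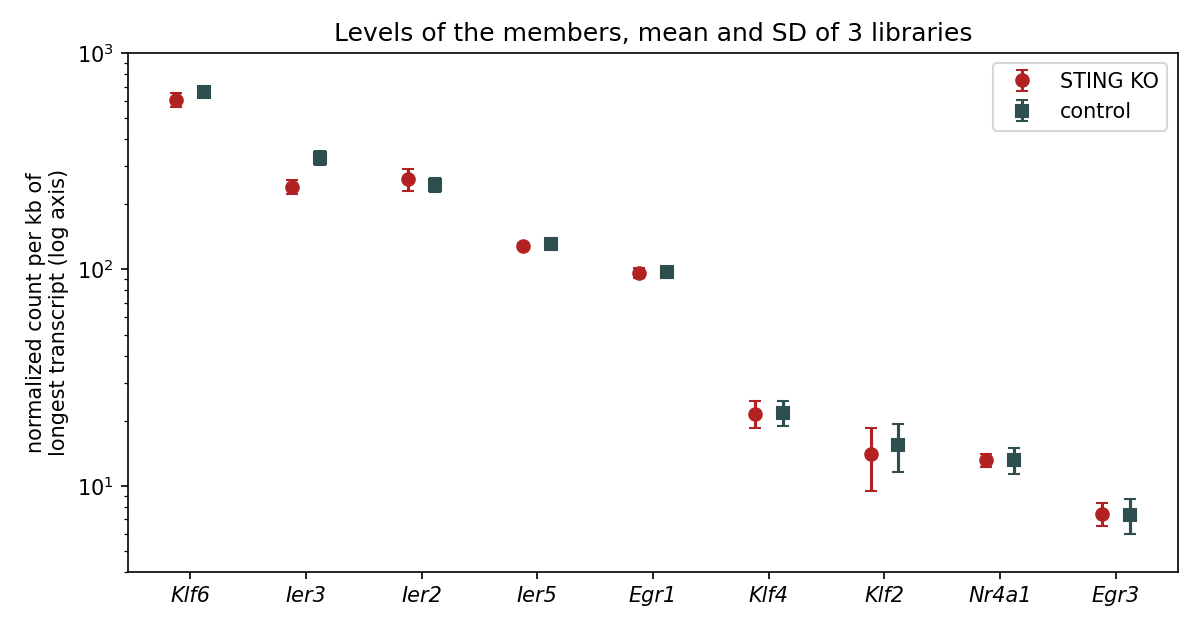
Normalized count per kb of the longest annotated transcript (vertical log axis) for the 9 immediate early genes above 0, with the mean and SD of 3 STING KO libraries (circles) and 3 control libraries (squares). Klf6 is highest at 607 in STING KO and 662 in control, and Egr3 lowest at 7.42 in STING KO and 7.33 in control.

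The order of the levels was taken per kb of the longest annotated transcript, over all 6 libraries. Klf6 came first at 635 ± 42.7 normalized counts per kb (SD, n = 6), higher than 83.8% of the tested genes. Ier3 at 285 ± 52.0 and Ier2 at 253 ± 23.9 followed, and their libraries overlapped with both groups pooled. Their order over all 6 libraries is therefore not fixed, and these SDs include any difference between the groups. Ier5 stood at 130 ± 5.48 and Egr1 at 96.8 ± 4.78, apart from each other and from the genes above and below. Klf4 at 21.6 ± 2.67, Klf2 at 14.7 ± 3.84 and Nr4a1 at 13.1 ± 1.26 overlapped from neighbour to neighbour (SD, n = 6 each). Egr3 was at 7.37 ± 1.02 per kb, higher than 5.67% of the tested genes. In STING KO the per kb means of Ier3 and Ier2 were 241 ± 18.6 and 261 ± 30.2, and in control they were 329 ± 24.5 and 246 ± 18.3 (SD, n = 3 each). Ier3 thus had the higher mean in control, and Ier2 in STING KO.

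**Figure D4:**
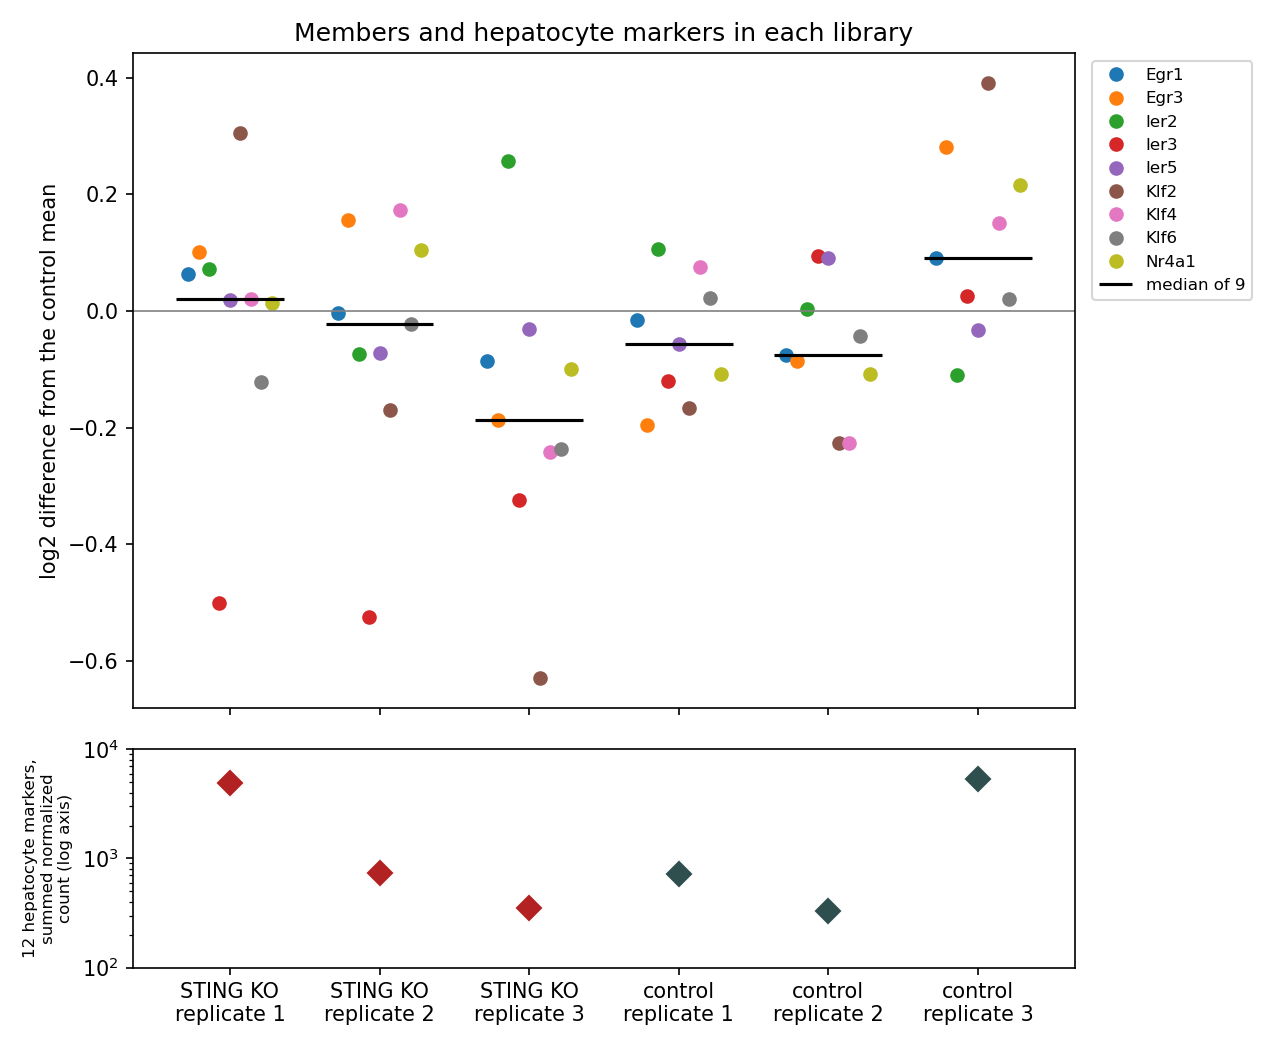
Upper panel, log2 difference of each of the 9 genes from the mean of the control libraries, in every STING KO and control library, with the median as a black line. Lower panel, summed normalized count of 12 hepatocyte markers on a log axis; the 2 libraries at 4937 and 5386 are those in which 7 of the 9 genes lie above the control mean.

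Several of the genes were high or low in the same libraries. Relative to the control mean, 7 of 9 lay above it in STING KO replicate 1, 3 in STING KO replicate 2 and 1 in STING KO replicate 3. In control, 3 lay above it in replicates 1 and 2 each and 7 in replicate 3. The control mean is made of these same libraries, so a high replicate 3 sets the others lower. These counts are therefore not independent of each other. The median log2 difference was lowest in STING KO replicate 3, at -0.19, and highest in control replicate 3, at 0.09. In STING KO replicate 1, however, Nr4a1, Ier5 and Klf4 lay only 0.01 to 0.02 above. Ier2 ran the other way, highest in STING KO replicate 3 (0.26) and lowest in control replicate 3 (-0.11). The libraries in which 7 genes lay above are those with hepatocyte marker sums of 4937 and 5386. The part of this in the levels was not tested. The first principal component of all tested genes (40.3% of variance) also set the same libraries lowest, at -12.1 and -21.7. How many of all tested genes lay above the control mean was not counted per library. Ier3 lay below the control mean in all STING KO libraries, at -0.50, -0.52 and -0.32 in STING KO replicates 1, 2 and 3. Without both libraries, limma again called 0 of the 9 genes and the log2 fold changes ran from -0.41 for Ier3 to 0.12 for Egr3.

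**Figure D5:**
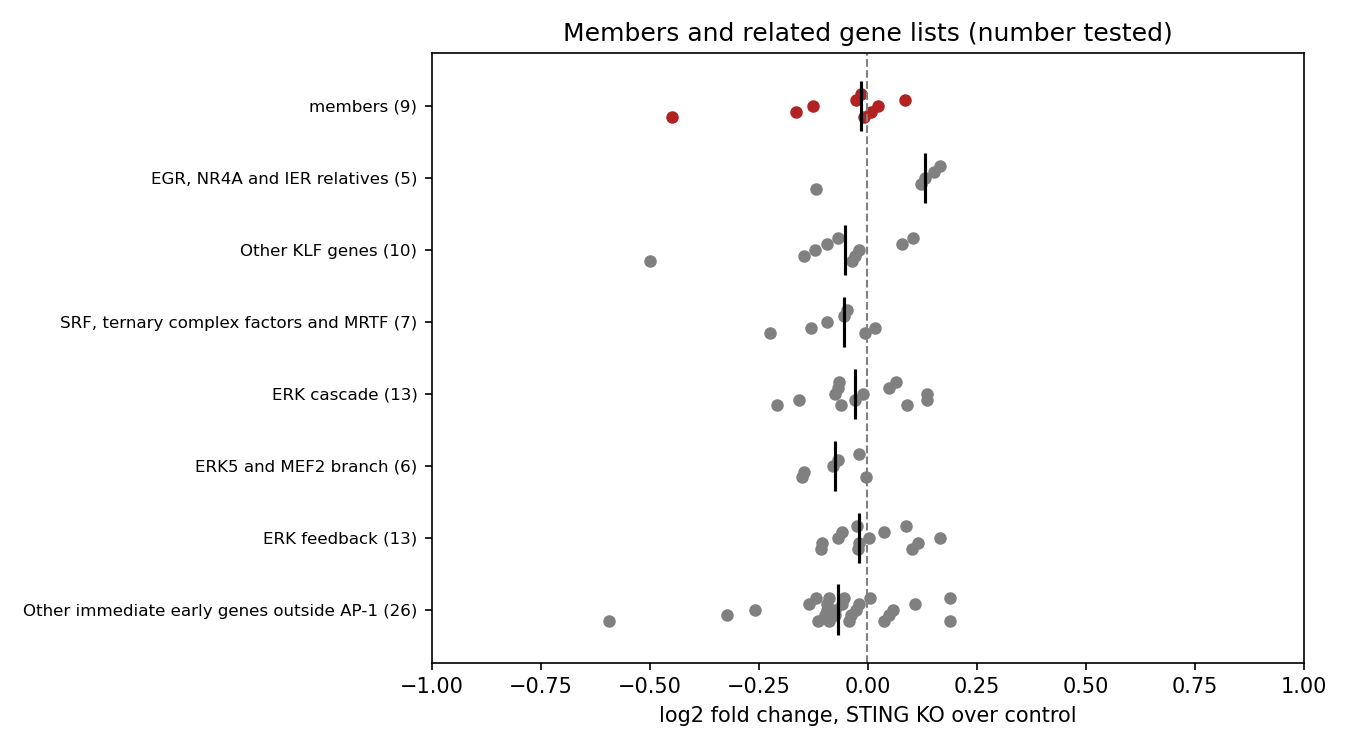
Log2 fold change, STING KO against control (horizontal axis), for each tested gene of the immediate early set (red) and of 7 related lists (gray), with black ticks at the list medians and a dashed line at the median of all tested genes. In every list 0 genes were called, and the medians lie between -0.08 and 0.13.

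Genes that act above, beside or below these factors were read from 7 lists, and limma called 0 genes in any of them, as did limma-voom, with 0 also past the threshold in the authors' deposited table. Before adjustment, limma had a p at or under 0.05 for 3 genes of the list of other immediate early genes, 1 of the relatives of the EGR, NR4A and IER genes, 1 of the other KLF genes and 0 of each of the other 4 lists. These stand at 3 of 26, 1 of 5 and 1 of 10 genes tested, beside 6.37% of all tested genes, 12.1% of which had groups that did not overlap. The signs over all tested genes were 6102 positive and 6306 negative. Genes of the ERK cascade, which carries growth factor signals to immediate early promoters, had 0 of 13 called and a median log2 fold change of -0.03. Its largest differences were in Rps6ka3, the kinase RSK2, at 1793 ± 301 in STING KO and 2063 ± 254 in control, and Braf, at 1306 ± 128 in STING KO and 1456 ± 136 in control (SD, n = 3 each). The ERK5 and MEF2 branch, which is known to induce Klf2 and Klf4, had 0 of 6 called. All 6 had a negative sign, at a median of -0.08, but in each the groups overlapped and the unadjusted p was above 0.05. Mef2a had a log2 difference of -0.15 (SE 0.09, limma adjusted p = 0.738), and the kinase gene Map3k3 was at -0.15 (SE 0.08, limma adjusted p = 0.738).

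SRF, its ternary complex factors and the MRTF coactivators had 0 of 7 called and a median log2 fold change of -0.05. Myocd, myocardin, was at -0.22 (SE 0.19) and Mrtfb at -0.13 (SE 0.07), with limma adjusted p of 0.751 and 0.738. The ERK feedback list of Dusp, Spry and Spred genes had 0 of 13 called and a median of -0.02. Not all of its phosphatases act mainly on ERK. Dusp1, a phosphatase of MAP kinases, was at 405 ± 20.7 in STING KO and 361 ± 24.998 in control (SD, n = 3 each). Dusp5, a nuclear phosphatase of ERK, was at 73.1 ± 14.3 in STING KO and 66.8 ± 4.16 in control (SD, n = 3 each).

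Close relatives of the EGR, NR4A and IER genes had 0 of 5 called, with 4 at a positive sign and a median log2 fold change of 0.13. Nab2 encodes a corepressor that binds EGR proteins and is itself a target of EGR1. It was at 1093, 1064 and 1187 normalized counts in STING KO, against 1005, 981 and 992 in control. The groups did not overlap, and the log2 fold change was 0.17 (SE 0.06, limma unadjusted p = 0.019, adjusted p = 0.738). Nr4a3, a nuclear receptor gene related to Nr4a1, was at 42.2 ± 6.58 in STING KO and 37.9 ± 4.57 in control (SD, n = 3 each).

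The other KLF genes had 0 of 10 called and a median log2 fold change of -0.05. Klf13, a factor known from T cells, was at 21.8, 19.9 and 20.1 normalized counts in STING KO, against 27.0, 32.9 and 27.8 in control. The groups did not overlap (log2 fold change -0.50, SE 0.20, limma unadjusted p = 0.0319, adjusted p = 0.738). Klf7 was at 419 ± 39.3 in STING KO and 464 ± 23.0 in control (SD, n = 3 each).

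Other immediate early genes outside AP-1 had 0 of 26 called, with 7 at a positive and 19 at a negative sign and a median log2 fold change of -0.07. Of these, 6 had groups that did not overlap, against 12.1% of all tested genes, and 3 had an unadjusted p at or under 0.05, against 6.37%, of which 2 were lower and 1 higher. Pim1, a serine/threonine kinase gene, was at 112, 86.6 and 98.4 normalized counts in STING KO, against 120, 122 and 128 in control. Its log2 fold change was -0.32 (SE 0.12, limma unadjusted p = 0.0219, adjusted p = 0.738). Rhob, a small GTPase gene, was at 18.8, 17.9 and 12.1 in STING KO, against 19.0, 17.0 and 43.7 in control. Its control mean rests on replicate 3, a library rich in hepatocyte transcripts. The other such library, STING KO replicate 1, was at only 18.8, and a link was not tested.

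The genes whose profile over the 6 libraries was closest to that of a named member were found by the root mean square difference of centred log2 values, among 9640 protein-coding genes. This is a description, since near neighbours exist by number alone. Genes chosen for closeness to Ier3, whose groups were apart, share its lower values in STING KO by that choice. Their differences and adjusted p are therefore no separate support. For Egr1 they were Dync1li2 (0.0114), Mettl4 (0.0207) and Hoxd8 (0.0214). For Klf6 they were Atf2 (0.0092), Dip2b (0.0126) and Cep41 (0.0165). For Ier3 the nearest genes lay farther away and were A4galt (0.0716), Slc11a2 (0.0737) and Krt80 (0.0807). Slc11a2, the iron transporter DMT1, was itself called, at 689 ± 15.5 in STING KO and 988 ± 22.1 in control (SD, n = 3 each; log2 fold change -0.52, SE 0.05, limma adjusted p = 0.00251). A4galt, a glycosyltransferase gene, was at 421 ± 21.4 in STING KO and 550 ± 21.7 in control (SD, n = 3 each; limma adjusted p = 0.0819).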

How the data were processed

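RNA-seq of poly(A) RNA from L929 cells was used, with 3 STING KO and 3 control libraries grouped by their titles. The authors deposited 1 gene table. Its sample columns are a signal made by the authors, here called normalized count: counts per gene over a size factor of the library. This was read from the values, of which 100% above 0 were whole multiples, within 0.01, of 1 step per library (0.990 to 1.00). Per the file headers, the authors also deposited their own test, as a log2 fold change with standard error, a score (its Wald statistic) and a p-value, raw and adjusted. As tools, per the submitters' processing notes, which give no role or order, they used DESeq2 1.4.5, RSEM 1.2.12, HISAT2 2.0.4 and Bowtie2 2.2.5, and the builds GRCm38 and mm10. The sources used here give neither annotation nor strand setting.

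The first row of each of 27507 identifiers was used. Coordinates and transcript lengths came from GENCODE M21 (GRCm38), which holds 27480 of them. In R 4.3.3, limma 3.58.1 was fitted to log2(normalized count + 0.1) with its trend option and no covariate, for the 12408 genes that reached 10 in 3 or more libraries. P-values were adjusted by Benjamini-Hochberg over all 12408, and genes at 0.05 or below were called. The added 0.1 draws fold changes toward 0, most where a library is near 0. For Klf2 the pull was small, at -0.164 against -0.158 with 1 added. The fit was tested on simulated data. Totals were 14382072 to 14526606 normalized counts; the reads implied by the steps summed to 14445540 to 14582221 per library, so depth was nearly equal. The genes described and the lists were chosen with earlier results of these data known. The rule for other named genes took Sting1 (Tmem173 in the table), the called genes of each list or, with none called, its 2 largest changes, and the 3 protein-coding genes with a mean of at least 100 closest to Egr1, Ier3 and Klf6 in profile. Other settings were a pseudocount of 1, no filter, a minimum value of 50, 3 other scalings, limma-voom, the authors' test, a replicate block and leaving out libraries. Count tests on reads recovered from the values were planned but not run, because a step this close to 1 was not accepted as proof of whole reads; the within-group chi-square alone used the values divided by the step.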

Additional observations from a re-analysis of the deposited data

How the results depend on the processing

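limma called 32 genes, all lower, and 0 of the 9 tested immediate early genes. With a replicate block 18 genes were called, and without both control replicate 3 and STING KO replicate 1 there were 12. Leaving out 1 library gave 21 to 35 genes, of which 21 without control replicate 1, and 0 to 1 of the immediate early genes. That gene was Ier3, called without STING KO replicate 3 (log2 fold change -0.51, limma adjusted p = 0.0454). All other alternatives called 0 of the 9. Over the 9 genes and their alternatives there were 141 values, of which 140 remained outside the threshold, 1 was inside it and 20, none of them called, had the other sign. Ier3 and Klf6 kept a negative sign under each of their 16 alternatives, with Klf6 at -0.18 to -0.07. Sting1 was called under all 16 as well. No pairing by replicate number was seen: deviations of same-numbered libraries correlated at -0.183, -0.180 and -0.488, and 0 of 6 libraries correlated best with their own number. The libraries rich in hepatocyte transcripts carry different numbers and may weigh on these correlations. The check therefore cannot show that the libraries were unpaired. The block changed no call of these 9 genes. The 2 count tests planned for recovered reads were not run. Near 30 counts, as for Egr3, Klf2 and Nr4a1, depth limits what could be detected.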
